A study of Mus musculus with 2 samples.

Results

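Expression of 6 genes for secreted defence proteins was followed through the cell types of the mouse cervix: Ltf, Lcn2, Wfdc2, Wfdc18, Slpi and C3. They were taken by symbol from the list of 31053 genes in the deposited matrices, and all 6 were found. Ltf encodes lactoferrin and Lcn2 encodes lipocalin 2, which keep iron from microbes by binding it or the bacterial molecules that carry it. Wfdc2, Wfdc18 and Slpi encode small proteins with whey acidic protein (WAP) domains, a fold found in protease inhibitors and antimicrobial proteins of mucosal fluids. C3 encodes the central complement protein, on which the complement pathways converge and whose fragments mark microbes for uptake. The lining of the cervix combines a layered squamous epithelium, with basal cells below and suprabasal cells above, and luminal columnar cells that make mucus.

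Cervices came from ovariectomised C57BL6/129 females that were 7 to 8 weeks old at surgery and had 2 weeks of recovery before a 15-day experiment. The control animals were left untreated. Animals of the progesterone group received estradiol (E2), 100 µg a day for 2 days, and then a 25 mg pellet of 21-day release, which gives about 1 mg a day. Each group was 1 library pooled from 9 mice, with cells freed by cold protease and tagged with droplet 3′ chemistry. All animals lacked ovaries, and the progesterone group differed from the controls by estradiol as well as by the pellet, so the effects of these hormones cannot be told apart. With 1 library per group there was no test between groups, and every interval below is an exact 95% interval (Poisson for levels, Clopper-Pearson for shares of cells, conditional binomial for ratios) that covers counting error only. A level is given as UMIs (unique molecular tags, each standing for 1 captured transcript) of the gene per 1000000 UMIs of the cells named, written CPM. A gene was called higher or lower with progesterone when its CPM ratio was at least 2-fold and the cells held at least 20 of its UMIs over both libraries.

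The control library held 5368 barcodes and 21658684 UMIs and the progesterone library 10853 barcodes and 44811069 UMIs, with 19 barcodes in common. After filters, 4579 and 8541 cells fell into 31 clusters, which were named from fixed marker genes without using the 6 genes. Here and below, pairs of values give the control library and then the progesterone library. There were 631 and 1735 luminal-like cells, 818 and 3149 basal-like cells and 400 and 374 suprabasal-like cells. A further 1522 and 67 cells had basal and suprabasal marker scores too close to separate and were kept apart as basal-suprabasal-like. Of immune cells, 333 and 443 were neutrophil-like and 168 and 113 macrophage-like; no cluster was named for lymphocytes, dendritic cells or mast cells. Fibroblast-like cells numbered 77 and 115 and blood endothelium-like cells 45 and 62, and 543 and 2322 cells stayed unnamed. Median depths ran from 581 UMIs in control neutrophil-like cells to 8206.5 in control suprabasal-like cells. Blood endothelium-like cells were used to show how much signal free RNA gives in cells that should lack the epithelial genes.

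Luminal-like cells, as clustered here, carried most of the transcripts of Ltf, Lcn2 and Wfdc2 in both libraries. They held 88.5% and 95.8% of all Ltf UMIs, 74.2% and 86.1% of Lcn2 UMIs, and 79.2% and 71.8% of Wfdc2 UMIs. Most of the control Ltf and Lcn2 UMIs of this class were in clusters 11 and 22, whose luminal name is uncertain. Without cluster 11 its control UMIs fell from 59969 to 23895 for Ltf and from 28025 to 13898 for Lcn2. Without cluster 22 they fell to 39637 and 14294. The control shares depended on the clustering: at resolution 0.5 the luminal-like class held 35.3% of control Ltf, 36.8% of Lcn2 and 47.0% of Wfdc2 UMIs, and 73.2%, 67.5% and 71.0% with progesterone. Wfdc18 was split: 42.5% of its control UMIs and 90.3% of its progesterone UMIs were luminal, and 1 basal-suprabasal-like cluster (cluster 3) held 49.6% of the control UMIs. The name of epithelial proteins held only in part for the other 2 genes. For Slpi the neutrophil-like cells held 38.3% and 48.8% of its UMIs and luminal-like cells 35.6% and 44.5%. Which of these came out ahead depended on the setting, since luminal-like cells held 42.7% of the control UMIs with the listed genes kept in the clustering, against 38.1% in neutrophil-like cells. For C3 the level was highest in fibroblast-like cells, which held 17.7% and 31.5% of its UMIs while making up 1.68% and 1.35% of the cells. Luminal-like cells held more C3 UMIs, 837 and 1305 against 421 and 818 in fibroblast-like cells, and basal-suprabasal-like cells held 860 and 13.

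**Figure D1:**
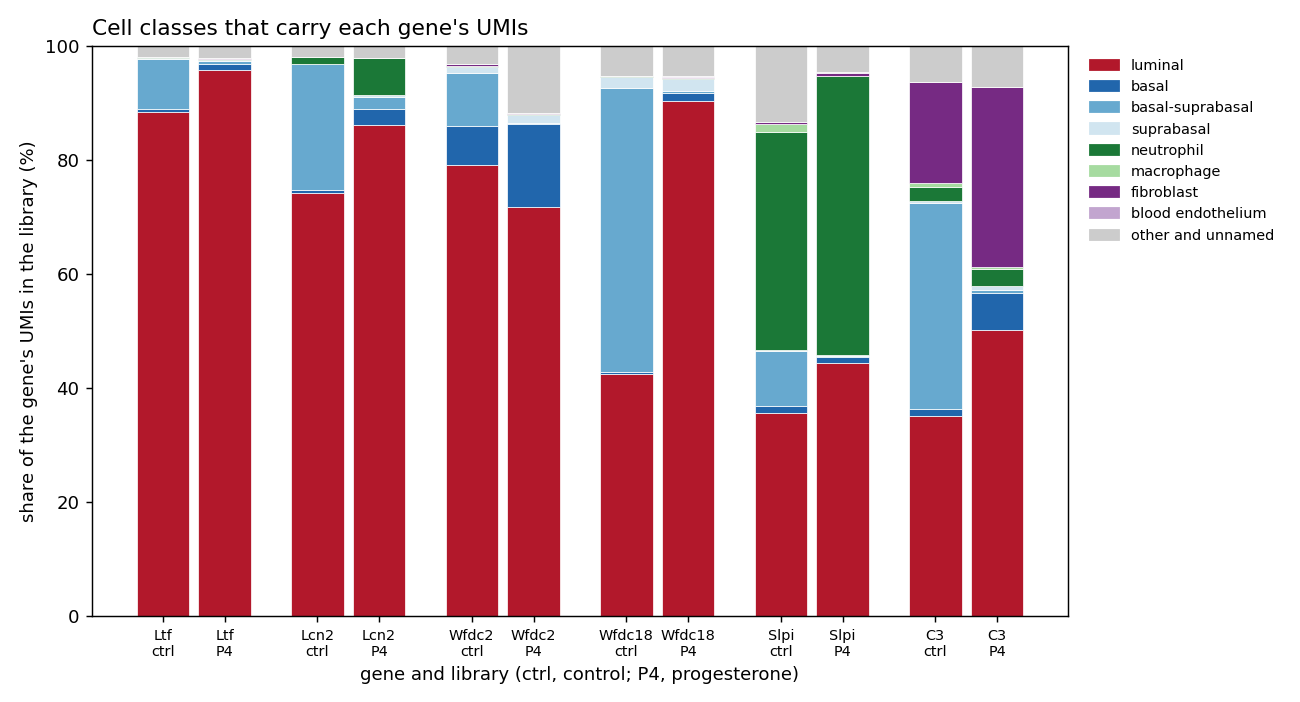
Share of each gene's UMIs (vertical axis, percent of the gene's UMIs in that library) held by each cell class, stacked to 100, for the control and the progesterone library side by side. Luminal-like cells fill 88.5% and 95.8% of the Ltf bars, whereas neutrophil-like cells fill 38.3% and 48.8% of the Slpi bars and fibroblast-like cells 17.7% and 31.5% of the C3 bars.

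The luminal-like class was not made of the same cells in the 2 libraries. In the control library its main clusters were 11 (324 of 631 cells), 20 (124), 22 (86) and 24 (79), and in the progesterone library clusters 4 (934 of 1735 cells) and 7 (699). Clusters 4 and 7 were led by the mucous cell genes Tff1, Agr2 and Muc5b, the last of which encodes a gel-forming mucin. Cluster 20 was led by Psca, Tff1 and Olfm4, cluster 24 by Postn and Upk1a, and cluster 27, found only in the progesterone library (39 cells), by Prap1. Clusters 11 and 22 were led by Sprr2 genes, which encode cornified envelope proteins of squamous cells, together with Psca, Lcn2 and, in cluster 11, Ltf. Their Krt8 levels were low for luminal cells, at 283 and 349 CPM over both libraries, against 681 to 3730 CPM in clusters 4, 7, 20, 24 and 27, and cluster 11 also held 1463 CPM of Krt5 and 3223 CPM of Krt13, keratins of basal and suprabasal cells. In control cells of cluster 11 the luminal markers summed to 4361 CPM, the basal ones to 4812 CPM and the suprabasal ones to 4056 CPM, and in those of cluster 22 to 9134, 1663 and 2407 CPM. Both clusters scored highest for the luminal list, but their leading genes were squamous, so the class name is uncertain for them and they are also given by number. Ratios over the whole luminal-like class therefore compare mainly clusters 11, 20, 22 and 24 of the control library with clusters 4 and 7 of the progesterone library.

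**Figure D2:**
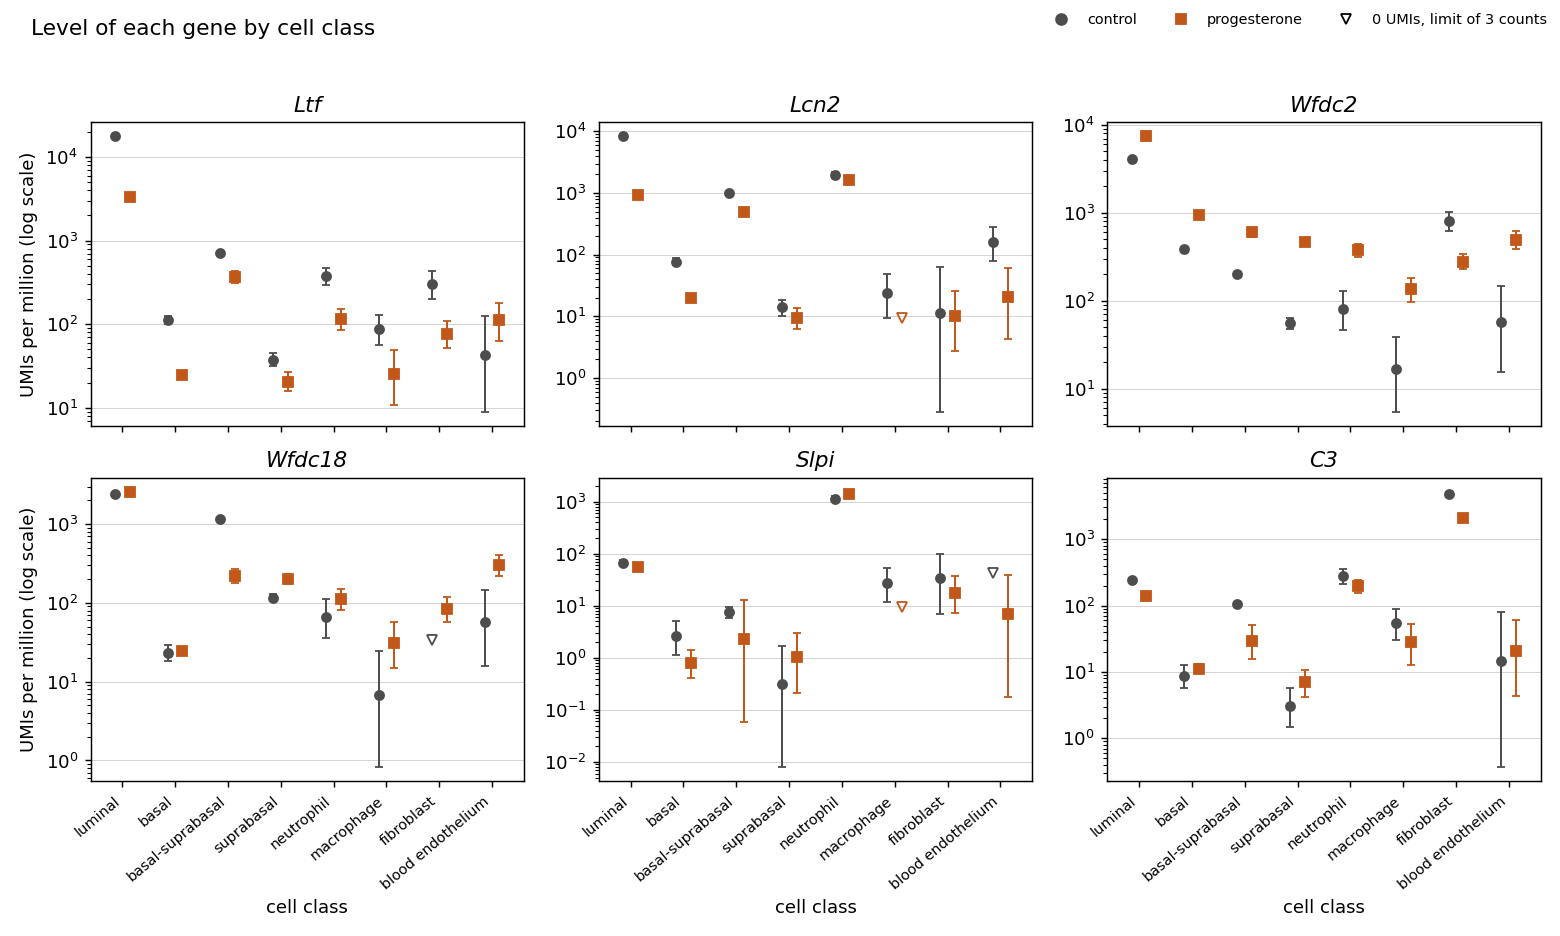
Level of each gene (vertical axis, CPM, log scale) in 8 cell classes of the control library (circles) and the progesterone library (squares), with exact 95% Poisson intervals for counting error; open triangles mark 0 UMIs at the limit of 3 counts. Ltf and Lcn2 are lower in luminal-like cells of the progesterone library (17647 against 3337 CPM and 8247 against 923 CPM), Slpi stands highest in neutrophil-like cells of both libraries and C3 in fibroblast-like cells of both.

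Calls among the members were read against those among all measured genes. In luminal-like cells 2 of 6 members, Ltf and Lcn2, were called lower, where 7.03% of 11554 measured genes were, and 0 of 6 were called higher, where 18.9% of genes were. In basal-like cells 1 member was called higher against 8.36% of genes, and 3 (Ltf, Lcn2, Slpi) lower against 7.74%. In suprabasal-like cells 2 of 5 measured members (Wfdc2, C3) were called higher against 20.9% of genes and 0 lower against 5.65%. In neutrophil-like cells 1 of 6 (Wfdc2) was called higher against 8.27% and 1 (Ltf) lower against 5.46%, and in macrophage-like cells 1 of 3 measured members (Wfdc2) was higher against 5.82% and 1 (Ltf) lower against 8.08%. The median log2 ratio of the members was -0.56 in luminal-like cells, -0.83 in basal-like, 0.80 in suprabasal-like and 0.03 in neutrophil-like cells, beside 0.32, -0.03, 0.34 and 0.01 over all measured genes.

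Ltf and Lcn2, the iron-defence genes, were both lower in the luminal-like class of the progesterone library. For Ltf this held with clusters 11 and 22 counted in it or not. For Lcn2 the level left without them in the control library was near background. Ltf stood at 17647 CPM in the control library and at 3337 CPM in the progesterone library, 5.29-fold lower (5.22 to 5.36). Lcn2 stood at 8247 and 923 CPM, 8.93-fold lower (8.72 to 9.15). Without clusters 11 and 22, an alternative chosen after seeing the data, the log2 ratios were -1.51 for Ltf and -4.09 for Lcn2, against -2.40 and -3.16 with them. Most Lcn2 UMIs of the class were in these 2 clusters in both libraries, so this Lcn2 ratio compares the lower levels of the other clusters. Control endothelium-like cells stood at 158.5 CPM of Lcn2 (79.1 to 283.6), so the control level in this ratio could not be told from background. Seen per cell at an equal depth of 2000 UMIs, a transcript of Ltf was found in 93.1% and 47.5% of luminal-like cells and one of Lcn2 in 350 of 522 and 72 of 1611 cells. Without thinning these shares were 90.8% and 59.3% for Ltf and 66.1% and 6.34% for Lcn2. Most of the control cells held both genes: 66.7% of thinned luminal-like cells had a transcript of each, against 3.85% with progesterone.

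Within the 4 luminal-like clusters with at least 10 cells in both libraries the 2 genes differed. In cluster 22 (86 and 17 cells), where Ltf was highest, it stood at 33583 and 40989 CPM, a ratio of 1.22 (1.19 to 1.25), and Lcn2 at 22680 and 28769 CPM, a ratio of 1.27 (1.23 to 1.31). In cluster 11 (324 and 33 cells) Ltf stood at 17823 and 22396 CPM, a ratio of 1.26 (1.23 to 1.29), and Lcn2 at 6980 and 5634 CPM, a ratio of 0.807 (0.769 to 0.847). In these clusters the levels of the 2 libraries were less than 2-fold apart, and the clusters were a small part of the luminal-like cells with progesterone. In cluster 4 (12 and 934 cells) Ltf stood at 3285 and 3090 CPM, a ratio of 0.941 (0.798 to 1.12), whereas Lcn2 stood at 1095 and 13.1 CPM, a ratio of 0.0120 (0.00802 to 0.0180), from 48 and 56 UMIs. In cluster 24 (79 and 10 cells) Ltf was higher with progesterone, at 930 and 2650 CPM, a ratio of 2.85 (2.14 to 3.76), and Lcn2 had 5 UMIs and 1 UMI. Lcn2 was thus lower within 1 shared cluster and Ltf higher within another. The Lcn2 levels of cluster 4 were near those of the erythrocyte-like cells described below (1101 and 21.8 CPM), so they could not be told from that background. The basal markers of cluster 4 summed to 5360 CPM in its 12 control cells and 1075 CPM with progesterone, so its cells were not alike in the 2 libraries. The 17 cells of cluster 22 held 66.4% of all Lcn2 UMIs of that library and 29.1% of its Ltf UMIs. Without cluster 22 the luminal-like Lcn2 ratio moved from 0.112 to 0.0424; for Ltf the ratio ran from 0.152 without cluster 11 to 0.335 without cluster 7.

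The spread over single cells was wide in these clusters. In control cells of cluster 22, the median Ltf level over cells was 33325 CPM and the highest cell gave 10.9% of its UMIs to this gene. In the 17 progesterone cells the median was 42753 CPM and the highest share 8.68%. Cluster 11 cells had a median Ltf level of 14739 CPM in the control and 10576 CPM in the progesterone library. Over the 12 control cells of cluster 4 the median Lcn2 level was 192 CPM and the highest 3068 CPM. In cluster 7 the progesterone cells had 120 CPM of Ltf and 5.64 CPM of Lcn2. Cluster 20, the control cluster rich in Olfm4, had 6030 CPM of Ltf and 211 CPM of Lcn2. This Lcn2 level lay within the interval of control endothelium-like cells (79.1 to 283.6 CPM). Among luminal-like cells Lcn2 was thus mainly in clusters 11 and 22. A smaller amount, near that of erythrocyte-like cells, was in the few control cells of cluster 4. Ltf was also present in cluster 20 and in cluster 4 of both libraries.

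**Figure D3:**
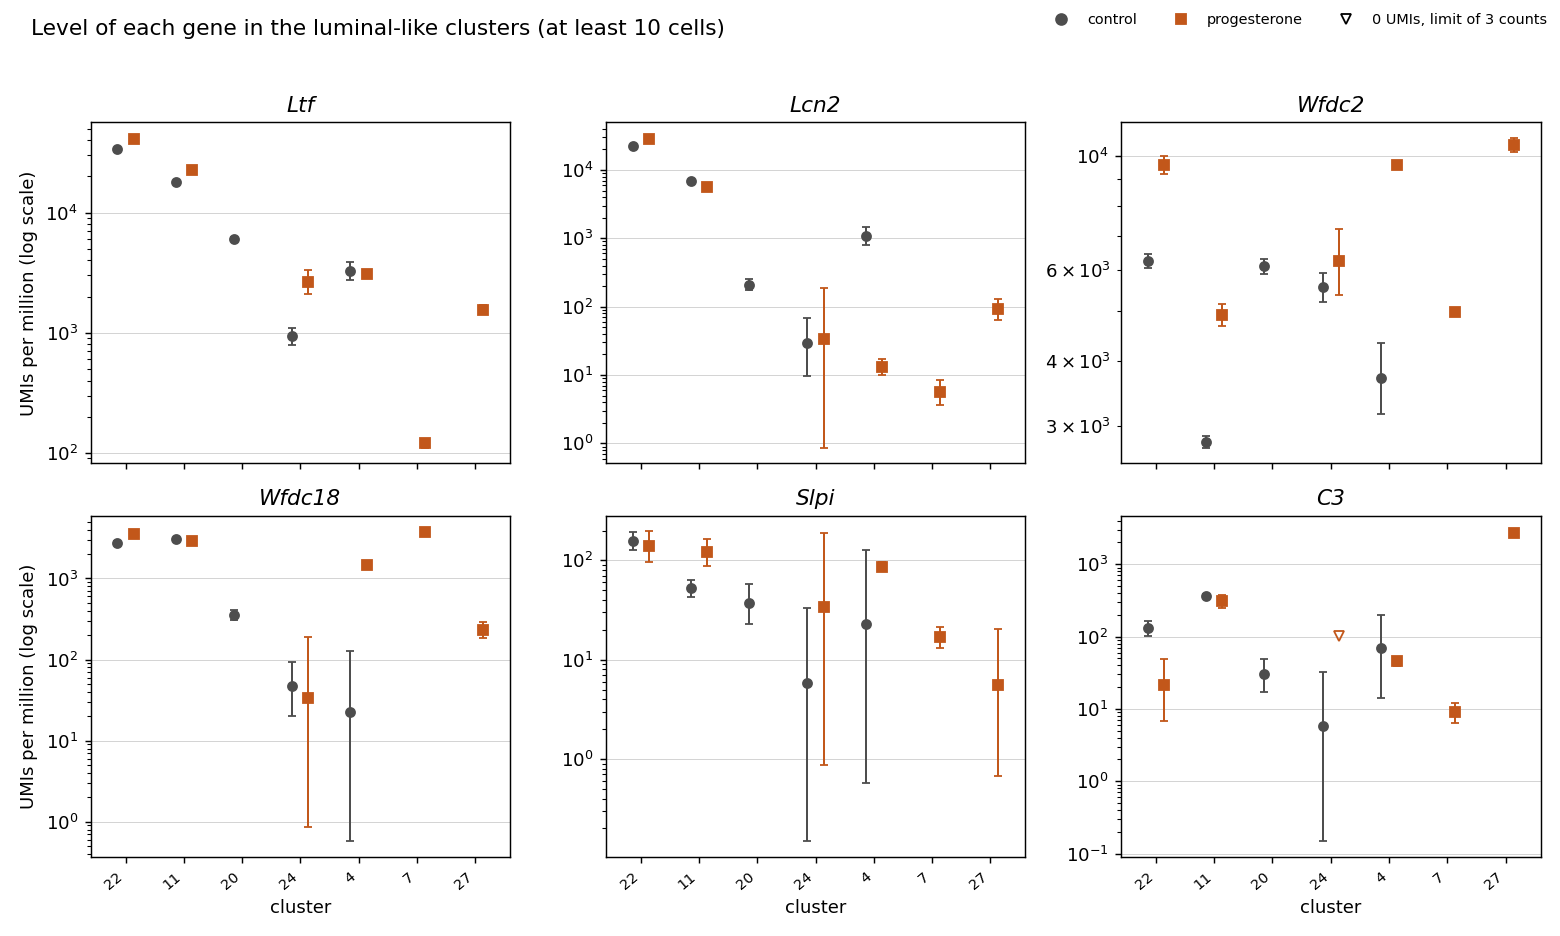
Level of each gene (vertical axis, CPM, log scale) in the 7 luminal-like clusters (horizontal axis), for each library with at least 10 cells in the cluster; circles are control, squares progesterone, bars exact 95% Poisson intervals. In clusters 22 and 11 the 2 libraries lie close together for Ltf and Lcn2, Wfdc18 is highest in cluster 7 of the progesterone library (3783 CPM) and C3 in cluster 27 (2694 CPM).

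Outside the luminal-like class, Ltf and Lcn2 were found mainly in control cells of cluster 3 and, for Lcn2, in neutrophils. Among the 8 classes plotted by level, the order of Ltf began in both libraries with luminal-like, then basal-suprabasal-like, then neutrophil-like cells, and the intervals of neutrophil-like and fibroblast-like cells overlapped. Erythrocyte-like cells (39 and 143 cells, with the squamous gene Sprr2d and the mucous gene Clca1 among their leading genes) stood at 2147 and 238 CPM of Ltf and 1101 and 21.8 CPM of Lcn2, and 18 smooth muscle and pericyte-like cells of the progesterone library stood at 1088 CPM of Ltf, with 96.9% of those UMIs in 1 cell. Both classes are outside these orders. For Lcn2 the luminal-like cells came before the neutrophil-like cells in the control library and after them in the progesterone library, with basal-suprabasal-like cells next in both. Cluster 3 (1069 and 47 cells), led like cluster 11 by Sprr2 genes and with Krt8 at 30.3 CPM, had 1067 and 529 CPM of Ltf and 1516 and 700 CPM of Lcn2. Over both basal-suprabasal-like clusters Ltf stood at 720 and 368 CPM and Lcn2 at 1017 and 492 CPM. In basal-like cells Ltf stood at 113 and 24.7 CPM and Lcn2 at 76.4 and 19.7 CPM, each called lower. These basal values rest on few cells: 5 of 818 control cells held 69.2% of the basal Ltf UMIs, and the other cells stood at 35.4 CPM. At 2000 UMIs, 7.52% and 3.03% of basal-like cells had a Ltf transcript, and in blood endothelium-like cells 0 of 7 and 9.09% of 33 did, so basal Ltf could not be told from background. The same held for Lcn2, at 10.2% and 3.24% of basal-like cells against 2 of 7 and 3.03% of endothelium-like cells. In suprabasal-like cells Ltf was at 37.7 and 20.6 CPM and Lcn2 at 13.9 and 9.41 CPM, the lowest values among the 4 epithelial classes. With progesterone the Ltf intervals of suprabasal-like (15.6 to 26.5) and basal-like cells (22.3 to 27.4) overlapped. This order also depended on keeping cluster 3 apart, although its marker score was higher for suprabasal (0.93) than for basal cells (0.52).

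Neutrophils store lipocalin 2 and lactoferrin in their granules, filled while they mature in the marrow. Neutrophil-like cells of the cervix had 1955 and 1644 CPM of Lcn2, a ratio of 0.841 (0.742 to 0.953), and this class was too shallow for 2000 UMIs. At 500 UMIs, 40.5% (35.2 to 46.0) and 33.0% (28.6 to 37.6) of neutrophil-like cells had a Lcn2 transcript, against 4.44% and 1.61% of endothelium-like cells. Ltf was at 372 and 115 CPM, called lower, and at 500 UMIs reached 13.2% (9.77 to 17.3) and 5.87% (3.87 to 8.48) of neutrophil-like cells, against 6.67% (1.40 to 18.3) and 3.23% (0.393 to 11.2) of endothelium-like cells, so Ltf in neutrophils could not be told from background. Neutrophil-like cells had 0.190 and 0.0702 Ltf UMIs per Lcn2 UMI, luminal-like cells 2.14 and 3.62. Endothelium-like cells had 0.273 (0.0489 to 1.03) in the control and 5.33 (1.53 to 28.6) with progesterone, from few UMIs. The summed level of 7 neutrophil markers was 121 and 38.3 CPM in cluster 22 and 55.3 and 2.97 CPM in cluster 11, against 14018 and 14737 CPM in neutrophil-like cells. Macrophage-like cells had 87.4 and 25.1 CPM of Ltf, and 23.5 CPM and no UMI of Lcn2, where a count of 0 allows up to 11.6 CPM.

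The promoters of Ltf and Lcn2, whose transcripts were found together in clusters 11 and 22, are printed from RefSeq on GRCm38.p6, 250 bases before to 50 after the start, with motif matches in capitals. Ltf is a protein-coding gene at chr9:111019271-111042767 on the plus strand and Lcn2 one at chr2:32384633-32388252 on the minus strand. The promoter windows are chr9:111019042-111019341 (+) and chr2:32387690-32387989 (-).
Ltf: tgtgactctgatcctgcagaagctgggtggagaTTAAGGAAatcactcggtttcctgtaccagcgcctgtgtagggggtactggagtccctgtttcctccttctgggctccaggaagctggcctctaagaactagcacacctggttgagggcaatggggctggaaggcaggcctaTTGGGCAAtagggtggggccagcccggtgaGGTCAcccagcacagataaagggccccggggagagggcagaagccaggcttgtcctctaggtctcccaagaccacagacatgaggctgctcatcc
Lcn2: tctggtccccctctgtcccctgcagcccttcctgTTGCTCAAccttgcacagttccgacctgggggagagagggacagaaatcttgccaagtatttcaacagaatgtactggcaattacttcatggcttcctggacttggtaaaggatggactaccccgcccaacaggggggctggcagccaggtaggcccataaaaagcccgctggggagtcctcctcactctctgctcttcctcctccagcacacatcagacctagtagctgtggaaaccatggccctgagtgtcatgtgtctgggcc
The search covered 5 motifs on both strands. They included TTNNGNAA, a core of sites for C/EBP factors, and GGTCA, the core of estrogen response elements. The full estrogen response element was GGTCA and TGACC with 3 bases between, so that it contains the core. The progesterone receptor element was GNACA and TGTNC with 3 bases between. For NF-kappaB a single form of the site was used (GGG, any 2 bases, TTTCC), and other forms were not searched. In the Ltf window the C/EBP letters stood at -217 to -210 and at -75 to -68 from the start and GGTCA at -45 to -41. In the Lcn2 window the C/EBP letters stood at -216 to -209, on the other strand. Matches of these kinds are common: 40.7% of 27025 promoters held the C/EBP letters and 40.2% GGTCA. The NF-kappaB letters, in 1.62% of promoters, the full estrogen element, in 0.0666%, and the progesterone receptor letters, in 0.463%, were in neither window.

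Wfdc2 encodes HE4, a WAP protein of glandular and airway epithelium. In luminal-like cells it stood at 4087 and 7390 CPM, a ratio of 1.81 (1.78 to 1.84), which misses the 2-fold rule. Where a luminal cell was instead 1 that, thinned to 2000 UMIs, gave 3 or more to the keratins Krt8 and Krt18 together, a definition chosen after seeing the data, the log2 ratio was -0.13, so the direction turned. After thinning, 83.7% and 98.5% of luminal-like cells had a transcript. It was present in each luminal cluster with at least 10 cells, from 2795 CPM in control cells of cluster 11 upwards. In the clusters with at least 10 cells in both libraries it was higher with progesterone in cluster 22 (6247 and 9587 CPM, ratio 1.53), cluster 11 (2795 and 4921 CPM, ratio 1.76) and cluster 4 (3718 and 9602 CPM, ratio 2.58, from 12 control cells), and its interval included 1 in cluster 24 (5559 and 6252 CPM, 0.955 to 1.32). The highest level was in cluster 27, at 10476 CPM.

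Wfdc2 was the only member called higher in basal-like cells, and it was called higher in suprabasal-like cells as well. Among the 8 classes luminal-like cells had the highest level in both libraries, and with progesterone the intervals of basal-suprabasal-like, endothelium-like, suprabasal-like, neutrophil-like and fibroblast-like cells each overlapped their neighbour's in the order. In basal-like cells it stood at 389 and 949 CPM, a ratio of 2.44 (2.30 to 2.59), and was found in 40.8% (36.0 to 45.7) and 73.7% (72.0 to 75.3) of thinned cells. Within the basal clusters holding 10 or more control and progesterone cells, the ratio was 2.10 in cluster 0, 1.30 in cluster 1, 3.33 in cluster 10 and 3.38 in cluster 15, the last 2 being led by the proliferation genes Mki67 and Top2a. In suprabasal-like cells it stood at 55.7 and 461 CPM, 8.27-fold higher (7.07 to 9.72). The suprabasal-like control cells were mostly cluster 12 (336 of 400), which had no progesterone cell and 33.6 CPM of Wfdc2; within cluster 9 (64 and 374 cells) the values were 187 and 461 CPM, a ratio of 2.47 (1.98 to 3.10).

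Wfdc2 signal in cells that should lack it was higher in the progesterone library. Blood endothelium-like cells stood at 57.6 and 495 CPM, but 2 of the 62 progesterone cells held 85.9% of those UMIs and the others stood at 75.4 CPM. A transcript was found in 15.2% (5.11 to 31.9) of 33 thinned progesterone cells of this class, fewer than the 73.7% of basal-like and 41.0% (36.0 to 46.2) of suprabasal-like cells. Erythrocyte-like cells of that library stood higher, at 1161 CPM, with a transcript in 59 of 118 thinned cells (40.7% to 59.3%). Basal-like cells passed them in share of cells but not in level. Suprabasal-like cells passed them in neither, so by these measures suprabasal Wfdc2 could not be told from background. Erythrocyte-like cells held 854 Wfdc2 and 431 Muc5b UMIs. Muc5b, the mucin of the luminal-like clusters, gave another measure. In the progesterone library there were 0.970 Wfdc2 UMIs per Muc5b UMI in luminal-like and 0.483 in endothelium-like cells, and 14.8 (13.8 to 15.8) in basal-like and 8.01 (6.81 to 9.48) in suprabasal-like cells. In the control library there were 6.02 in luminal-like, 239.6 (102 to 739) in basal-like and 4.62 (3.25 to 6.70) in suprabasal-like cells, so there the suprabasal interval held the luminal value. Neutrophil-like cells (80.1 and 374 CPM) and macrophage-like cells (16.8 and 135 CPM) were also called higher, but with 1.49 and 0.811 Wfdc2 UMIs per Muc5b UMI in the progesterone library, and with a transcript in 14.2% and 7.08% of cells at 500 UMIs against 11.3% of endothelium-like cells, their Wfdc2 could not be told from background.

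Wfdc18, a short WAP protein gene also known as Expi, stood at near-equal luminal levels in the 2 libraries, from different clusters. It stood at 2389 and 2542 CPM in luminal-like cells, a ratio of 1.06 (1.04 to 1.09), and 67.6% and 49.4% of thinned cells had a transcript. In the control library the luminal transcripts came from cluster 11 (3082 CPM) and cluster 22 (2745 CPM). With progesterone they came mainly from cluster 7 (3783 CPM), which held 60.2% of the library's Wfdc18 UMIs, and from cluster 4 (1448 CPM), with 23.1%. The progesterone cells of clusters 11 and 22 stood at 2867 and 3532 CPM, ratios of 0.930 (0.869 to 0.996) and 1.29 (1.18 to 1.40). The near-equal class ratio thus depended on the clusters counted, and was 0.640 without cluster 7 and 1.85 without cluster 11.

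Among basal-suprabasal-like cells Wfdc18 was found mainly in cluster 3 of the control library, where it stood at 1737 CPM against 312 CPM in the 47 progesterone cells. The other basal-suprabasal-like cluster, 8, had 11.7 and 7.54 CPM. Basal-like cells stood at 23.4 and 24.4 CPM, a ratio of 1.04 (0.807 to 1.36). Endothelium-like cells had 57.6 and 299.6 CPM, but 1 progesterone cell held 88.4% of the latter UMIs and the others stood at 36.4 CPM. Suprabasal-like cells had 116 and 203 CPM, a ratio of 1.75 (1.53 to 2.00), whose log2 value ran from -2.90 to 1.36 over the alternatives. Within cluster 9 the values were 447 and 203 CPM, so the direction turned when the control-only cluster 12 (60.4 CPM) was left aside. Neutrophil-like cells were at 66.0 and 110 CPM and macrophage-like cells at 6.73 and 31.3 CPM. At 500 UMIs a transcript was found in 4.74% (2.96 to 7.16) of progesterone neutrophil-like cells and 3.23% (0.393 to 11.2) of endothelium-like cells, so neutrophil Wfdc18 could not be told from background. In the order of control levels luminal-like cells came before basal-suprabasal-like and these before suprabasal-like cells; with progesterone the intervals of endothelium-like, basal-suprabasal-like and suprabasal-like cells overlapped.

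Slpi encodes secretory leukocyte peptidase inhibitor, which blocks neutrophil elastase, and most of its transcripts outside the luminal-like cells were in neutrophils. Neutrophil-like cells stood at 1140 and 1426 CPM, a ratio of 1.25 (1.07 to 1.46). At 500 UMIs, 27.3% (22.6 to 32.5) and 37.5% (32.9 to 42.2) of them had a transcript, while 0 of 45 and 0 of 62 endothelium-like cells did, which allows shares of up to 7.87% and 5.78%. Neutrophil-like cells came before luminal-like cells in the order of levels of both libraries, with intervals apart. They held 3.06 and 12.3 Slpi UMIs per Ltf UMI, luminal-like cells 0.00375 and 0.0164. In luminal-like cells Slpi stood at 66.2 and 54.6 CPM, a ratio of 0.824 (0.704 to 0.968), and 9.20% and 7.26% of thinned cells had a transcript. The luminal transcripts were mainly in cluster 22 (157 and 141 CPM), cluster 11 (52.4 and 122 CPM) and cluster 4 with progesterone (86.4 CPM). Of the control luminal-like UMIs, 28.4% were in 2 of 631 cells. The class ratio ran from 0.429 without cluster 4 to 1.29 without cluster 7. Basal-like cells held 8 and 12 Slpi UMIs and suprabasal-like cells 1 and 3, too few for a ratio to be informative although the basal value of 0.310 (0.117 to 0.874) passed the rule. The 2 unnamed leukocyte clusters, 23 and 25, carried Slpi at 121 to 164 CPM, whereas macrophage-like cells had 26.9 CPM and, with progesterone, no UMI.

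Among the cell classes the C3 level was highest in fibroblast-like cells, which are not epithelial, although luminal-like cells held more of its UMIs. Fibroblast-like cells came before neutrophil-like and luminal-like cells in the order of both libraries, and the intervals of neutrophil-like and luminal-like cells overlapped in the control. Fibroblast-like cells, the stromal cells that make collagen, stood at 4698 and 2081 CPM, 2.26-fold lower with progesterone (2.00 to 2.54), and at 500 UMIs 72.7% (61.4 to 82.3) and 61.7% (52.2 to 70.6) of them had a transcript. The difference was smaller in cluster 19, which held 76 and 99 of these cells, at 4426 and 2884 CPM, a ratio of 0.652 (0.577 to 0.737). The remaining fibroblast-like cells, cluster 30, were 1 control cell with 29 C3 UMIs and 16 progesterone cells with 2 in all. Median C3 over single cells of cluster 19 was 3138 and 2716 CPM. In 39 cells of cluster 27, a luminal-like cluster seen only with progesterone, C3 stood at 2694 CPM, with a transcript in 35 of 39 thinned cells, and they held 37.1% of that library's C3 UMIs. The summed levels in cluster 27 were 6138 CPM for 7 luminal markers, all detected, 288 CPM for 7 neutrophil markers, 5 of them at 0, and 39.1 CPM for 7 macrophage markers, 5 of them at 0. C3 was itself among the leading genes of cluster 27, although it took no part in the clustering.

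Over all luminal-like cells C3 stood at 246 and 137 CPM, a ratio of 0.558 (0.511 to 0.610), a value that single clusters decided. It was 0.152 without cluster 27 and 1.82 without cluster 11, which had 365 and 306 CPM; without both cluster 11 and cluster 22 the log2 ratio was 2.33. In cluster 22 C3 was 130 CPM in the control and 21.3 CPM in the progesterone library, from 79 and 5 UMIs, so there C3 went against Ltf and Lcn2. Cluster 3 of the control library, at 156 CPM, held 35.8% of the control C3 UMIs, and its 47 progesterone cells stood at 42.7 CPM. Basal-like cells had 8.78 and 11.2 CPM and suprabasal-like cells 3.09 and 6.97 CPM, no higher than the 14.4 and 20.9 CPM of endothelium-like cells. The suprabasal value, 10 and 20 UMIs, was called higher, and the ratio within cluster 9 was 1.08 (0.321 to 5.68). Neutrophil-like cells stood at 278 and 196 CPM, with a transcript at 500 UMIs in 11.4% (8.20 to 15.3) and 9.48% (6.92 to 12.6) of cells. In endothelium-like cells it was 0 of 45, which allows up to 7.87%, and 1.61% (0.0408 to 8.66) with progesterone. The unnamed leukocyte cluster 23, led by Lyz2, Tyrobp and Ms4a6c, had 411 and 310 CPM.

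The C3 promoter is shown because its C/EBP letters lie in a row. C3 is a protein-coding gene at chr17:57203970-57228136 on the minus strand, and the window is chr17:57228087-57228386 (-).
C3: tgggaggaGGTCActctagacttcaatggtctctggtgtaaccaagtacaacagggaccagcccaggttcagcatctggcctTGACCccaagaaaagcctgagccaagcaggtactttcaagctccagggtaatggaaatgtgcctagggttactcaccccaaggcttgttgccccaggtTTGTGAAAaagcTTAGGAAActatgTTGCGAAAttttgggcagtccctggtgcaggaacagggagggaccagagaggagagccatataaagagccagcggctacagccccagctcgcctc
The C/EBP letters stood at -70 to -63, -58 to -51 and, on both strands, -45 to -38, and GGTCA or its reverse complement at -242 to -238 and -168 to -164. The letters of the other 3 motifs were not in the window. Of the remaining members, Wfdc2 lies at chr2:164562413-164568510 (+), Slpi at chr2:164354070-164389095 (-) and Wfdc18 at chr11:83709015-83711348 (+), all on GRCm38.

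**Figure D4:**
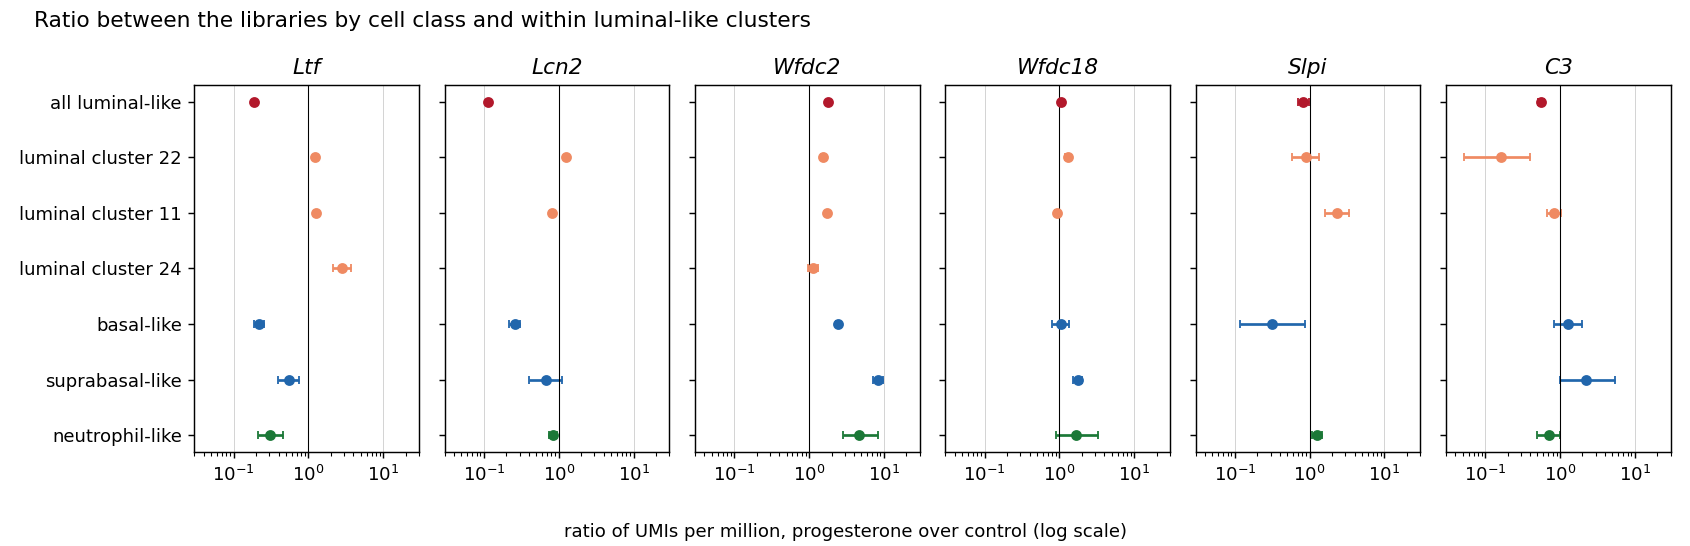
Ratio of CPM, progesterone over control (horizontal axis, log scale; the vertical line marks 1), for each gene in all luminal-like cells, in luminal clusters 22, 11 and 24, and in basal-like, suprabasal-like and neutrophil-like cells; bars are exact 95% intervals for counting error, and points with fewer than 20 UMIs are left out. For Ltf and Lcn2 the class ratios of 0.189 and 0.112 lie far from the ratios of 1.22 and 1.27 within cluster 22, and the Wfdc2 points lie above 1 throughout.

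Other antimicrobial genes of the luminal-like cells were mostly lower with progesterone. Of 26 listed antimicrobial and iron-binding genes 12 were measured there, of which 7 were called lower and 2 higher, with a median log2 ratio of -1.80. Over all measured genes of these cells 7.03% were called lower and 18.9% higher, with a median of 0.32. The calprotectin genes S100a8 (2489 and 240 CPM) and S100a9 (3897 and 347 CPM) and the defensin gene Defb1 (242 and 42.1 CPM) were lower, and Hp (7.65 and 18.1 CPM) and Lyz2 (3.53 and 7.90 CPM) were higher at low levels. As with Ltf and Lcn2, cluster 22 had high levels in both libraries: S100a8 stood there at 11435 and 9050 CPM and Defb1 at 839 and 1496 CPM. Pglyrp1, which encodes a peptidoglycan recognition protein, was between the limits at 681 and 957 CPM. In neutrophil-like cells S100a8 stood at 38525 and 39746 CPM, and 0 of 6 measured genes of this list were called either way. Over all measured genes there, 8.27% were called higher and 5.46% lower. S100a8 and S100a9 were also lower in basal-like cells (84.2 and 8.67 CPM, and 121 and 15.5 CPM). There 3 of 8 measured genes were called lower, against 7.74% of all genes, and 1, Ang, higher, against 8.36%. In endothelium-like cells S100a8 stood at 202 (110 to 338) and 6.97 CPM, so the basal S100a8 values could not be told from background.

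Complement genes were called in both directions. Of 26 listed genes 15 were measured in luminal-like cells, of which 6 were called higher and 3 lower, with a median log2 ratio of 0.60. The values over all measured genes of the class were 18.9% higher, 7.03% lower and a median of 0.32. Clu, which encodes clusterin, was lower at 480 and 156 CPM, but in cluster 11 it stood at 505 and 1123 CPM and in cluster 22 at 933 and 891 CPM. The C1q genes C1qa (1.18 and 10.5 CPM) and C1qb (0.883 and 9.27 CPM) were higher in luminal-like cells, and in macrophage-like cells C1qa stood at 3864 and 6940 CPM. The summed level of 7 macrophage markers in luminal-like cells was 72.4 and 43.3 CPM, with 4 of them at 0 in the control and 0 of them with progesterone, and its part in the C1q values was not tested. In basal-like cells 8 of 12 measured complement genes were called higher, 3 of them the C1q genes C1qa, C1qb and C1qc, and 1, Cd55, lower. Of all measured genes there, 8.36% were called higher and 7.74% lower. The macrophage markers summed in basal-like cells to 255 and 102 CPM.

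The WAP family outside the members was thinly detected. Of 19 listed genes 4 were measured in luminal-like cells: Wfdc10 (0.883 and 14.9 CPM) and Wfdc3 (0.883 and 3.69 CPM) were higher, Wfdc17 (192 and 53.8 CPM) was lower and Wfdc15b (116 and 84.0 CPM) was between. Of all measured genes of these cells 18.9% were called higher and 7.03% lower. Wfdc10 was nearly all in cluster 27, at 391 CPM. In neutrophil-like cells Wfdc17 stood at 754 and 710 CPM and Wfdc21 at 377 and 610 CPM, neither called. Wfdc15b was called higher in basal-like cells (9.75 and 25.3 CPM) and suprabasal-like cells (24.1 and 80.5 CPM), as Wfdc2 was and as 8.36% and 20.9% of all measured genes were. The suprabasal-like control cells were mostly cluster 12, which had no progesterone cell, and the Wfdc15b ratio within cluster 9 is not given.

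Receptors of the members were few in the luminal-like cells. Slc22a17, a receptor for lipocalin 2, stood at 5.30 and 9.06 CPM in luminal-like cells, and Lrp1, a receptor for lactoferrin among other ligands, at 20.6 and 9.38 CPM. Of 10 listed receptor genes 5 were measured there. Itln1, which encodes an intelectin, was higher (0 and 138 UMIs), where 18.9% of all measured genes were. Itgam (42.4 and 15.1 CPM) and Lrp1 were lower, where 7.03% of genes were. C3ar1, the receptor of the C3a fragment, was found in macrophage-like cells at 229 and 342 CPM. All 16 listed genes of the NF-kappaB, IL-17 and C/EBP inputs were measured in luminal-like cells, 0 were called higher and 5 lower, with a median log2 ratio of -0.27. For all measured genes of the class the shares were 18.9% and 7.03% and the median 0.32. Cebpd, which encodes C/EBP delta, stood at 88.3 and 18.4 CPM, Nfkbiz, a co-activator of Lcn2 in other tissues, at 79.7 and 28.3 CPM, and Il1rn at 45.3 and 6.53 CPM. In neutrophil-like cells 1 of 14 measured, Nfkbia, was lower (2120 and 976 CPM), against 5.46% of all measured genes there.

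Across the 16 sums of a class and a library with at least 50 cells, the genes whose levels ran most like each member were compared on the log2(CPM + 10) scale among 9672 genes. They were Cxcl5 (Pearson's r 0.94), Muc4 and Krt19 for Ltf, Suco (0.87), Por and Ifitm1 for Lcn2, and Krt18 (0.97), Med24 and Krt8 for Wfdc2. For Wfdc18 they were Pdzk1ip1 (0.90), Adam28 and Srd5a1, for Slpi Ndel1 (0.96), Tnfrsf23 and Dgat1, and for C3 Gsn (0.90), Igfbp6 and Rhoq. Krt8, Krt18 and Krt19 encode the keratins of simple epithelia and were among the luminal markers, and Gsn and Igfbp6 are genes of connective tissue cells. The 16 sums come from only 2 libraries, so these values describe the order of cell classes more than that of the treatments. No member was among the 3 genes nearest to another.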

How the data were processed

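Single cells of 2 mouse cervix libraries, 1 per group, were analysed. The deposited values are unnormalized UMI counts for each barcode and gene, made by the authors as feature, barcode and matrix files per the file headers; the submitters' processing notes name Cell Ranger 3.0.2 and the mm10 genome, and other settings are not given in the sources used here. Barcodes with under 200 genes or over 20% mitochondrial UMIs were left out (608 control and 1632 progesterone), as were 181 and 680 likely doublets, those with the highest simulated-doublet scores at an assumed 0.8% per 1000 cells. The 2 libraries were clustered together (scanpy 1.11.5, leidenalg 0.10.2) on 2000 variable genes, 30 components, 15 neighbours and resolution 1, without the members, the listed genes and mitochondrial genes. Clusters were named from 18 marker classes, and the naming thresholds were adjusted after the clusters had been seen; cluster sizes are no result between groups, and other clustering can give other names.

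UMIs were summed per class, cluster and library and divided by the total of the same cells. Intervals came from scipy 1.17.1 (95%, counting error only; pooled mice within a library give no replicate). Shares of cells were taken after thinning to 2000 UMIs, or 500 for shallow classes, leaving out shallower cells. Genes named are the members, up to 3 called higher and 3 lower with the largest UMI sums from each of 5 lists (92 genes, all in the files) in a class, those of highest CPM in any class, and the 3 genes most like each member; other listed genes (Slc22a17, Wfdc15b, Pglyrp1 and others) were named for their role after their values had been seen. Members and lists were chosen with earlier results of these data known. Calculations were tested on simulated counts. Alternatives were other clustering resolutions, filters, thinning depths, UMI minimums, per-cell means, totals without the most abundant genes, no doublet removal, listed genes kept in the clustering, and libraries clustered apart. Luminal cells taken by Krt8 and Krt18 UMIs, leaving out cluster 27 or clusters 11 and 22, and counting clusters 2 and 3 as suprabasal-like were chosen after seeing the data. Promoters are RefSeq's on GRCm38.p6 (all 6 members matched), and gene positions come from GENCODE on GRCm38. Of 19 barcodes shared by the libraries, 12 were among the analysed cells. Values of 1 listed complement gene are not reported here.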

Additional observations from a re-analysis of the deposited data

How the results depend on the processing

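Luminal-like Ltf and Lcn2 were lower with progesterone under each alternative that gave a value, with log2 ratios from -2.97 to -1.51 and from -4.13 to -2.93 (with single clusters left out, ratios from 0.152 to 0.335 and from 0.0424 to 0.201), and basal-like Wfdc2 was higher, from 0.78 to 1.56. Without clusters 11 and 22 the control Lcn2 level could not be told from background. The luminal-like log2 ratios of Wfdc2 (-0.13 to 1.39), Wfdc18 (-0.17 to 3.15), Slpi (-0.72 to 0.65) and C3 (-2.72 to 2.33) crossed 0, as did those of suprabasal-like Ltf (-3.71 to 0.24) and Wfdc18 (-2.90 to 1.36). Over all log2 ratios of members 126 stayed within the counting error of the main value, 85 moved beyond it and 3 were calls whose direction turned. These were all of C3 in suprabasal-like cells, a call from 30 UMIs: -1.02 without doublet removal, -2.55 with the stricter cell filter (500 genes, 10% mitochondrial) and -2.60 with clusters 2 and 3 counted as suprabasal-like. Members called lower in suprabasal-like cells, 0 in the main analysis, were 1 at resolution 0.5, 3 without doublet removal, 5 with the stricter filter, 2 by per-cell means and 5 with clusters 2 and 3; those called higher went from 2 to 1 under the last 4 of these. Basal-like members called lower went from 3 to 1 without doublet removal and with libraries clustered apart, and those called higher from 1 to 0 by per-cell means. Luminal-like members called higher went from 0 to 1 with listed genes kept in the clustering and to 2 without clusters 11 and 22. Macrophage-like members went from 1 to 2 higher at resolution 0.5 and from 1 to 2 lower at resolution 0.5, with the stricter filter and with libraries apart. Of shares of UMIs or cells 156 stayed and 180 moved; the luminal-like share of control UMIs ran from 35.3% to 95.4% for Ltf, 36.8% to 90.9% for Lcn2, 47.0% to 81.9% for Wfdc2 and 18.8% to 55.6% for Slpi. The cause of these changes was not tested. Listed genes called higher and lower depended on the UMI minimum. At 50 UMIs, 7 were higher in luminal-like cells, 6 higher and 3 lower in basal-like, 0 higher in neutrophil-like and 1 higher in macrophage-like cells, against 11, 11, 6, 1 and 3 at 20 UMIs. At 1 UMI, 20 were higher and 26 lower in luminal-like, 24 and 13 in basal-like, 20 and 10 in suprabasal-like, 12 and 5 in neutrophil-like and 14 and 8 in macrophage-like cells. Over all genes, those called higher in luminal-like cells were 2181 of 11554 at 20 UMIs, 1683 of 10116 at 50 and 4684 of 16563 at 1. Neutrophil-like cells were not named at resolution 0.5 or with the stricter filter, and suprabasal-like cells of the progesterone library numbered 18 with listed genes kept, under the minimum of 50, so these gave no value. No paired analysis was possible because each group was 1 library with no shared replicate numbers. Depth limits the immune classes most, with medians of 581 and 776 UMIs in neutrophil-like cells.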

Other observations

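Clusters that stayed unnamed also held the genes. Cluster 16, with 197 progesterone cells and no control cell, was led by Tff1, Clca1, Agr2 and Olfm4 and stood at 4756 CPM of Wfdc2, 2393 CPM of Wfdc18 and 307 CPM of Ltf. Cluster 17, with 188 control and 3 progesterone cells, was led by the neutrophil genes S100a9 and S100a8 together with the keratin genes Krt16 and Krt6b, and its control cells stood at 1049 CPM of Ltf, 606 CPM of Lcn2 and 856 CPM of Wfdc18. Cluster 26, led by Plk2, Arc, Dusp1 and other early response genes, had 21 and 20 cells. Control cells there had 5 Ltf UMIs, or 299 CPM (97.1 to 698), and those treated with progesterone had 1643 CPM (1263 to 2102).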
